A study of Mus musculus with 18 samples.

Results

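Bone marrow-derived macrophages of wild-type (WT) mice treated with interferon gamma (IFN-gamma) were compared directly with those treated with interleukin 4 (IL-4). The comparison rests on the 3 libraries labelled WT with IFN-gamma and the 3 labelled WT with IL-4, which were chosen by label and are 6 of the 18 RNA sequencing libraries of the series. In all groups marrow cells from mouse femurs were cultured for 7 days with macrophage colony-stimulating factor (M-CSF, 30 ng/mL, 15% serum), and each cytokine then acted for 24 h. The other libraries were 3 WT untreated cultures and 3 each of untreated, IFN-gamma-treated and IL-4-treated cultures from mice knocked out (KO) for Ldha, the A chain of lactate dehydrogenase. The labels carry no strain, age, sex, cytokine dose or deletion design. The labels do not say that the replicates of a group were separate mice or cultures, so p-values measure the spread between these samples, which may be technical.

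IFN-gamma binds a receptor on the macrophage surface, activates the kinases JAK1 and JAK2 and sends transcription factors of the STAT family to DNA elements built of the half-sites TTC and GAA. Among the genes induced are interferon regulatory factors (IRFs), which act on a second wave of genes through elements with repeats of GAAA, and the resulting state, called classical activation or M1, is known for killing of intracellular microbes and antigen presentation. IL-4 signals through the IL-4 receptor alpha chain, JAK1 and JAK3 to STAT6, which prefers the same half-sites with 1 more base between them. The alternative or M2 state that follows is known for arginase, lectins, chitinase-like proteins and tissue repair.

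Promoters of genes from both sides of the comparison show what these elements look like in sequence. Windows of 26 genes were looked through, 16 of them with a match, and the 7 printed were picked because they hold one. The 10 windows without a match were those of Cxcl9, Irf7, Tap1, Psmb9, Cd274 and Il4ra, higher with IFN-gamma, and of Mrc1, Mgl2, Egr2 and Mmp12, higher with IL-4. The 7 are the 250 bases before each start in RefSeq (assembly GRCm38.p6), cut to 238 and 192 bases in Tgtp1 and Retnla where an annotated exon of the gene begins earlier, and written 5′ to 3′ on the strand of the gene. Capitals mark each match, on either strand, to TTCNNNGAA (the STAT motif with 3 bases between the half-sites), TTCNNNNGAA (the form with 4) or GAAANNGAAA (the interferon response motif), and overlapping matches were counted separately. Irf1, Socs1, Gbp7, Igtp and Tgtp1 were higher with IFN-gamma, and Retnla and Chil3 with IL-4.
Irf1 chr11:53769764-53770013 plus strand: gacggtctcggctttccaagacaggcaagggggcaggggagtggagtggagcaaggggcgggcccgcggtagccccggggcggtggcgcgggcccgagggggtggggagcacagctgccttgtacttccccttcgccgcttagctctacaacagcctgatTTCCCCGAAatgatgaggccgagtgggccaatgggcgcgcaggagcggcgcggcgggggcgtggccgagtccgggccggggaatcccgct
Socs1 chr16:10785537-10785786 minus strand: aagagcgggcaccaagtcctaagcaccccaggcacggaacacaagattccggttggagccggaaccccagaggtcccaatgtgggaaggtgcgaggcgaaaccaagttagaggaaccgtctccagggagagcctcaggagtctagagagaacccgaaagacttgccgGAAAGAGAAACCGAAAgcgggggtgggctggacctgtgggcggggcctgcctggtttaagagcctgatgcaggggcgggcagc
Gbp7 chr3:142530086-142530335 plus strand: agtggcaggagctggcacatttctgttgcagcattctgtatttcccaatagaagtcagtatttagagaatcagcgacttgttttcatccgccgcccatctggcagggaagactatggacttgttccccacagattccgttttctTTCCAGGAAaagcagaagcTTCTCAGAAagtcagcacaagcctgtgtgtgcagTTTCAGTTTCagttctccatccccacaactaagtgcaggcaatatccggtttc
Igtp chr11:58199306-58199555 plus strand: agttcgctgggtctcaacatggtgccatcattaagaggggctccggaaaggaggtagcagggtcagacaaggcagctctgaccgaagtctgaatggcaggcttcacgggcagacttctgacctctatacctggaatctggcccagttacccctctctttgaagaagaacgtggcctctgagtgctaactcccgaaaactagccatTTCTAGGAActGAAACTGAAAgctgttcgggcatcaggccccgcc
Tgtp1 chr11:48992259-48992496 minus strand: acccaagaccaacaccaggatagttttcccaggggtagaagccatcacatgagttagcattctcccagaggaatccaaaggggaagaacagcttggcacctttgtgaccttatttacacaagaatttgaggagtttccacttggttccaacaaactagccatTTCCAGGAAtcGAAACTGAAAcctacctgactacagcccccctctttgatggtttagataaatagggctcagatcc
Retnla chr16:48842359-48842550 plus strand: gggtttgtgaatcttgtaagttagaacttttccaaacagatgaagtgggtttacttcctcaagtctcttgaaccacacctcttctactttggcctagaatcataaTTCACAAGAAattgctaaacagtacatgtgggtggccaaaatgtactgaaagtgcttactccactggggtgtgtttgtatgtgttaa
Chil3 chr3:106167565-106167814 minus strand: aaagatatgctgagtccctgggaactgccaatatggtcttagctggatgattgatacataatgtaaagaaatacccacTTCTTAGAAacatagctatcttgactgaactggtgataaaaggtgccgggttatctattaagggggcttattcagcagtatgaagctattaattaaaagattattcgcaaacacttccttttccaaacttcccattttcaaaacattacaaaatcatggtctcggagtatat

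Irf1, an interferon regulatory factor, held a match with 3 bases that began 90 bases before its start, and none to the interferon response motif. Socs1, an inhibitor of JAK signalling, held 2 overlapping interferon response matches that began 83 and 77 bases before the start. Gbp7, a guanylate-binding protein, held 2 STAT matches with 3 bases (at 106 and 87) and 1 interferon response match (at 53). Igtp and Tgtp1, immunity-related GTPases, each held a STAT match followed after 2 bases by an interferon response match, at 45 and 34 bases before the start of Igtp and at 88 and 77 before that of Tgtp1. The RefSeq start of Tgtp1 lies 1926 bases from the gene start in the deposited table. Retnla held the form with 4 bases at 145, and Chil3 the form with 3 bases at 172. A match is only a description of the letters.

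Among all 32851 promoter windows of the RefSeq table, 7.02% held the STAT motif with 3 bases, 5.85% the form with 4 and 2.98% the interferon response motif. A window was at hand for 10231 of the 14288 genes tested, and of these 7.1, 5.74 and 3.44% held the 3 motifs. In genes at least 16-fold higher with IFN-gamma (151 with a window) the shares were 14.6, 9.93 and 18.5%. In genes at least 16-fold higher with IL-4 (93 with a window) they were 9.68, 12.9 and 1.08%. The interferon response motif stood in the windows of 5 of 5 guanylate-binding proteins, 5 of 6 immunity-related GTPases, 11 of 28 antiviral genes and 0 of 16 alternative activation genes. The STAT motif with 4 bases stood in 4 of those 16 and in 1 of the 5 guanylate-binding proteins, and the form with 3 bases in 3 of the 16 and 2 of the 5. These shares are descriptions without a test.

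Levels are given as normalized counts, that is, read counts per gene that the authors divided by a size factor for each library. They compare libraries within a gene and not genes with each other. Between 28.89 and 35.35 M reads fell on genes in the IFN-gamma libraries. The IL-4 libraries held 28.36, 9.773 and 49.54 M, and the shallow one, replicate 2, had reads on 15439 genes against 18414 to 19549 in the other WT polarized libraries. Mitochondrial transcripts made up 0.978 to 1.18% of reads with IFN-gamma and 1.504 to 1.924% with IL-4. IFN-gamma replicates 2 and 3 were close to each other, with a chi-square per gene of 4.595, and replicate 1 lay at 55.07 and 60.75 from them. The 3 IL-4 pairs lay at 43.28 to 61.48. The chi-square per gene rises with depth. By the SD of log2 differences over genes, IFN-gamma replicates 2 and 3 lay at 0.443 and replicate 1 at 0.573 and 0.593 from them. IL-4 replicates 1 and 3 lay at 0.51 by that measure, and the shallow replicate 2 at 0.932 and 0.836 from them. Differences are log2 of the normalized count plus 1, IFN-gamma minus IL-4, ± SE from limma, with p-values adjusted by Benjamini and Hochberg over the 14288 genes tested. For genes with few reads the added 1 narrows the difference, but a library without reads can widen it beyond the ratio of group means. Mmp25, for instance, had 8.60, and 7.19 without IL-4 replicate 2, which held no reads of it.

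The 2 states differed in most of the expressed genome. Of 14288 genes tested, 8649 (60.5%) passed an adjusted p of 0.05, 4401 of them (30.8%) higher with IFN-gamma and 4248 (29.7%) higher with IL-4. The counts of list members given below are to be read against these shares. With a difference of at least 2-fold, 1952 genes (13.7%) were higher with IFN-gamma and 1783 (12.5%) with IL-4, and at least 16-fold, 230 and 139. In 7926 of the called genes the 3 libraries of one state did not overlap the 3 of the other, and that held for 59.3% of all genes tested. Among called genes whose values are given below, the libraries of the 2 states overlapped only in Ccl7, Mki67 and Thbs1. The naming rules set this in part, because genes with the largest differences were named only if their libraries did not overlap. The median log2 difference over all genes was 0.01. Scaling each library to the same total in place of the size factors moved that median to -0.13 and the split of calls to 3537 higher with IFN-gamma and 5185 with IL-4. With that scaling 10 genes given below as not passing were called higher with IL-4: Abca1, Cxcl2, Cyba, Ifngr2, Irf3, Itgb1, Itgb2, Psmb6, Slc16a1 and mt-Co1. Without the shallow IL-4 replicate 2, 4122 genes were called higher with IFN-gamma and 4102 with IL-4.

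**Figure D1:**
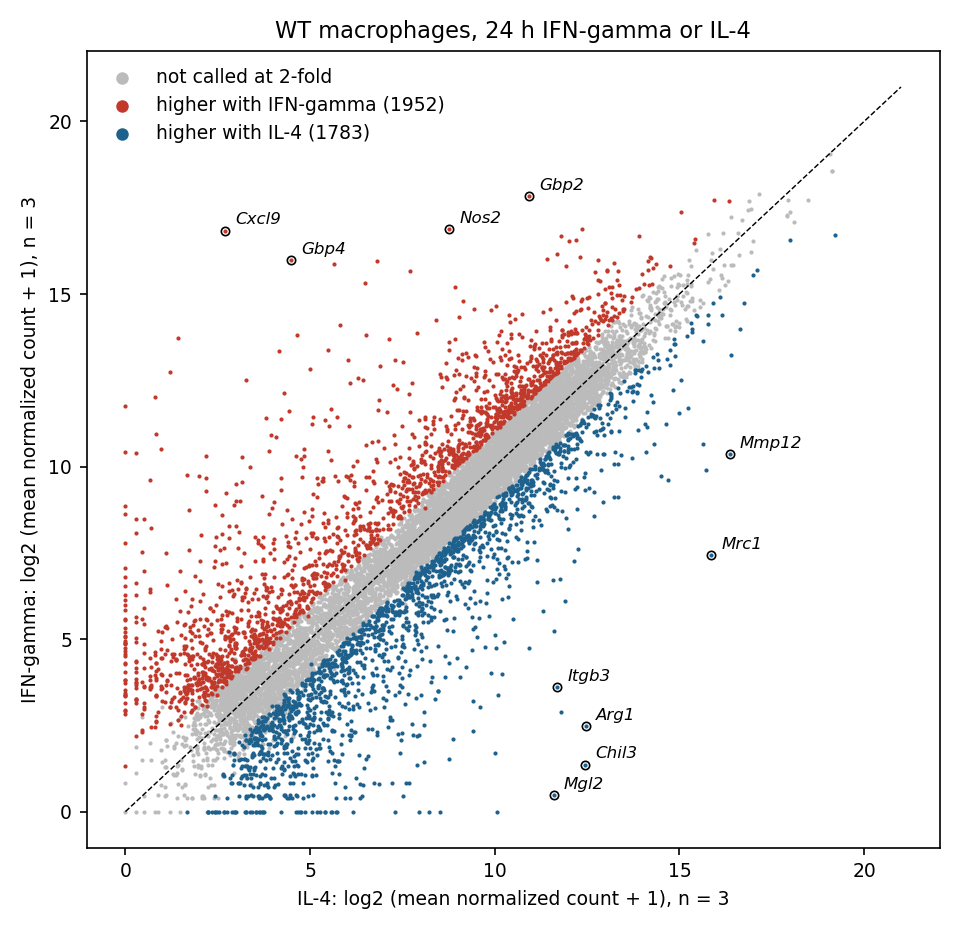
Each point is 1 of the 14288 genes tested, placed by the log2 of its mean normalized count plus 1 in the 3 WT IL-4 libraries (horizontal axis) and in the 3 WT IFN-gamma libraries (vertical axis), with genes called at 2-fold or more in colour (1952 above the diagonal, 1783 below it). Cxcl9, Gbp4 and Nos2 lie far above the diagonal and Chil3, Mgl2, Arg1 and Mrc1 far below it.

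The genes higher with IFN-gamma took up more of the IFN-gamma libraries than the genes higher with IL-4 took up of the IL-4 libraries. Those at least 2-fold higher with IFN-gamma made up 26.5 to 26.7% of the counts of the IFN-gamma libraries, 6.46 to 8.04% with IL-4 and 7.05 to 7.37% in untreated WT cells. Those at least 2-fold higher with IL-4 made up 14.9 to 16.1% with IL-4, 3.87 to 3.97% with IFN-gamma and 11.96 to 12.3% in untreated cells. Untreated cells thus stood near the IL-4 libraries in both sets. Of the 1952 genes, the untreated mean lay below both cytokine means in 854 (43.8%), between them in 1037 (53.1%) and above both in 61 (3.12%). Of the 1783 genes it lay below both in 90 (5.05%), between them in 1014 (56.9%) and above both in 679 (38.1%). Most genes at least 2-fold higher with IL-4 thus had untreated means above those of IFN-gamma-treated cells.

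The labelled cell type was checked against macrophage markers. The growth factor receptor Csf1r, which M-CSF binds, stood at 55770.5, 59182 and 60151 with IFN-gamma against 91800.2, 85961 and 91977 with IL-4. The F4/80 gene Adgre1, a surface marker of mouse macrophages, stood at 54708, 68122 and 73766 and 54784, 64219.7 and 58222 and did not pass (adjusted p = 0.355). All 18 listed identity genes were expressed in both states, and their summed level was 584904 to 636012 with IFN-gamma and 701236 to 740194 with IL-4. Of them 7 were higher with IFN-gamma and 9 with IL-4. Mertk, an efferocytosis receptor, and Fcgr1, the high-affinity IgG receptor, were higher with IFN-gamma by log2 3.26 ± 0.1497 and 2.77 ± 0.159. Lyz2, the macrophage lysozyme gene, was lower (232226, 223897 and 200017 against 380103, 359961 and 350107), with a near-identical copy, Lyz1, that could share reads with it. The Lyz2 difference did not pass with quantile normalization (log2 -0.24).

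Markers of other cell types were low. The stromal list of 13 genes summed to 201 to 417 with IFN-gamma and 286 to 1032 with IL-4, and 3 of the 11 tested passed, all higher with IL-4. The lymphocyte list summed to 56.96 to 105 with IFN-gamma and 206 to 256 with IL-4, the mast cell list to 120.3 to 256 and 73.1 to 126. The neutrophil list summed to 3228 to 3286 and 4990.2 to 5851, nearly all of it Csf3r, a receptor gene that macrophages also express, and the neutrophil granule genes Camp, Ltf and Ngp had too few reads to test. The erythroid and megakaryocyte list summed to 219 to 234 and 454 to 577. The dendritic cell list was split, with 6 of 9 genes higher with IFN-gamma, among them Xcr1, Clec9a and Dpp4. The 3 higher with IL-4 were Cd24a, Sirpa and Zbtb46. Cd24a stood at means of 10.3 with IFN-gamma and 137 with IL-4 (log2 -3.97 ± 0.424). It is not among the 232 named genes counted below. Sirpa, which macrophages also express, was higher with IL-4 (-0.97 ± 0.0882), and its level made up nearly all of the list's sum (36428 to 45761 against 75949 to 78830.2). Zbtb46, the lineage factor of these cells, stood at 14.7, 7.89 and 1.18 against 36.05, 16.4 and 16.3, a log2 difference of -1.73 ± 0.573 that did not pass without IFN-gamma replicate 3 (-0.92) or IL-4 replicate 1 (-1.36). Xcr1, a chemokine receptor that marks cross-presenting dendritic cells, stood at 509, 896 and 959 with IFN-gamma against 1.09, 0 and 0.625 with IL-4. Clec9a, a receptor for dead cells on the same dendritic cells, stood at 749, 1522 and 1527 and 4.37, 0 and 6.25. In bulk RNA a change in the number of cells of a type and a change in RNA per cell cannot be told apart, and the part of these cell types in the results was not tested.

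The most direct readout of classical activation in mouse macrophages is Nos2, the inducible nitric oxide synthase. The gene lies on chr11:78920787-78960254 (GRCm38, from the deposited table). It stood at 132459, 119531 and 111980.3 normalized counts with IFN-gamma and at 719, 243 and 348 with IL-4 (untreated 41.9, 38.8 and 38.2). Every IFN-gamma library lay far above every IL-4 library, and the log2 difference was 8.26 ± 0.2496 (adjusted p = 2.42e-14). Arg1, which turns the same substrate, arginine, into ornithine and is the matching readout of alternative activation, stood at 0.982, 6.76 and 5.896 with IFN-gamma against 7319, 4200.00 and 5491 with IL-4, a log2 difference of -10.19 ± 0.478 (adjusted p = 5.54e-12). Ass1, which rebuilds arginine from citrulline, was higher with IFN-gamma (6010.4, 4870.04 and 4622 against 857, 374 and 469). Slc7a2, an arginine transporter, was higher with IL-4 (1775, 909.7 and 525 against 12523, 7839 and 10493), though both states lay above the untreated mean of 122. Of 17 genes of arginine, nitric oxide and polyamine metabolism, 5 were higher with IFN-gamma and 9 with IL-4 (median log2 -0.35, against 0.01 over all genes). Sms, spermine synthase, did not pass (log2 0.17 ± 0.0716, adjusted p = 0.0524).

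Within the IFN-gamma pathway, the feedback inhibitors Socs1 and Socs3 were higher with IFN-gamma, and 1 receptor chain was lower. Ifngr1, the ligand-binding receptor chain, was lower with IFN-gamma (5435, 4727 and 4652) than with IL-4 (9429.7, 7639 and 8105), a log2 difference of -0.76 ± 0.0846, while the second chain Ifngr2 and the kinase Jak1 did not pass (-0.07 ± 0.0565 and 0.13 ± 0.0794). Stat2, a transcription factor of type I interferon signalling, was higher with IFN-gamma (14046, 20113 and 20048 against 7838, 5659 and 5685). Socs1 stood at 10420.1, 10404 and 10415 with IFN-gamma against 679, 967 and 1068 with IL-4. Its IL-4 level lay far above the untreated 20.5, 18.04 and 34.9, so that both cytokines left it above untreated cells. Socs3, a related inhibitor of cytokine receptors, stood at 6273, 5773 and 5263 and 119, 36.1 and 99.4. Of the 12 genes of this list, 9 were higher with IFN-gamma and 1 with IL-4, with a median log2 of 1.42.

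Most IRFs were higher with IFN-gamma, with 1 clear exception. Irf1 stood at 65763, 54001 and 53047 with IFN-gamma against 4291, 4059 and 3440.3 with IL-4, a log2 difference of 3.87 ± 0.109 (adjusted p = 9.82e-15). Irf8, a lineage factor of monocytes, rose to 54516, 48996 and 49307 from 6723, 6341 and 7006, and Irf7, the regulator of type I interferon genes, to 72799, 71484 and 64161 from 7431, 3567 and 4351. Batf2, a partner of IRFs, differed by log2 5.78 ± 0.163, and Irf5 by 1.37 ± 0.0721. Ciita, the master coactivator of MHC class II genes, stood at 4795, 6405 and 5876 against 640.1, 554 and 893. Irf4, which is known to act downstream of IL-4 in macrophages, went the other way: 37.3, 38.3 and 43.6 with IFN-gamma against 577, 725 and 815 with IL-4, with no overlap and a log2 difference of -4.10 ± 0.222. Irf3 did not pass (-0.09 ± 0.0893, adjusted p = 0.419). In all, 9 of 11 tested genes of the list were higher with IFN-gamma and 1 with IL-4 (median log2 1.37).

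The guanylate-binding proteins and immunity-related GTPases, which attack the vacuoles of intracellular microbes, were higher with IFN-gamma without exception among the members tested. All 11 listed guanylate-binding proteins were higher with IFN-gamma, with a median log2 difference of 6.92, and their summed level was 410028 to 442119 against 2985 to 3961 with IL-4. Gbp2 stood at 227178, 248587 and 227598 with IFN-gamma, 1983, 2098 and 1749 with IL-4 and 537, 429 and 449 in untreated cells. Gbp4 stood at 60604, 68091 and 66319 and 27.3, 22.95 and 14.4, a log2 difference of 11.54 ± 0.318. Gbp10 had 3765 reads in the IFN-gamma libraries and 0 in the IL-4 libraries, which puts it at least 1285-fold higher (floor of 3 reads over the group, counting error only). Gbp7, whose promoter is printed above, differed by 5.98 ± 0.253. Of the immunity-related GTPases 9 of 9 tested were higher with IFN-gamma, with a median of 5.13. Igtp stood at 21604, 25754 and 24728 against 722, 587 and 750.2, and Iigp1 at 54157, 63066 and 62976 against 61.2, 55.7 and 30.6. Irgm1 and Irgm2, regulatory members of the family, differed less, by 3.21 ± 0.154 and 3.39 ± 0.1503. Tgtp1 had 11187 reads with IFN-gamma and 2 with IL-4, a ratio of 5729 (95% counting interval 1586 to 47313). Members of both families have near-identical copies, and how the counting shared reads between Tgtp1 and Tgtp2 or among the clustered Gbp genes is not known.

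The antiviral genes classically tied to type I interferon were higher too. Of 39 genes tested, 37 were higher with IFN-gamma, 36 of them at least 2-fold, and none with IL-4 (median log2 2.36). Their summed level ran from 643945 to 814367 with IFN-gamma, from 122969 to 152479 with IL-4 and from 93526 to 102085 in untreated cells. Isg15, a ubiquitin-like modifier, stood at 20859, 19724 and 18617 against 1826, 1466 and 1183. Mx1, a GTPase against influenza viruses, stood at 20139, 33105 and 32711 against 857, 397 and 421, and the DNA sensor family member Ifi205 at 7197, 9513 and 9160.02 against 95.03, 65.6 and 33.1. Oasl1, Usp18 and Samhd1 differed by log2 5.89 ± 0.251, 3.68 ± 0.139 and 2.77 ± 0.0824. Ifitm1 and Ifitm2, of a family that blocks virus entry, did not pass (0.31 ± 0.275 and -0.17 ± 0.1300, adjusted p = 0.349 and 0.268).

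**Figure D2:**
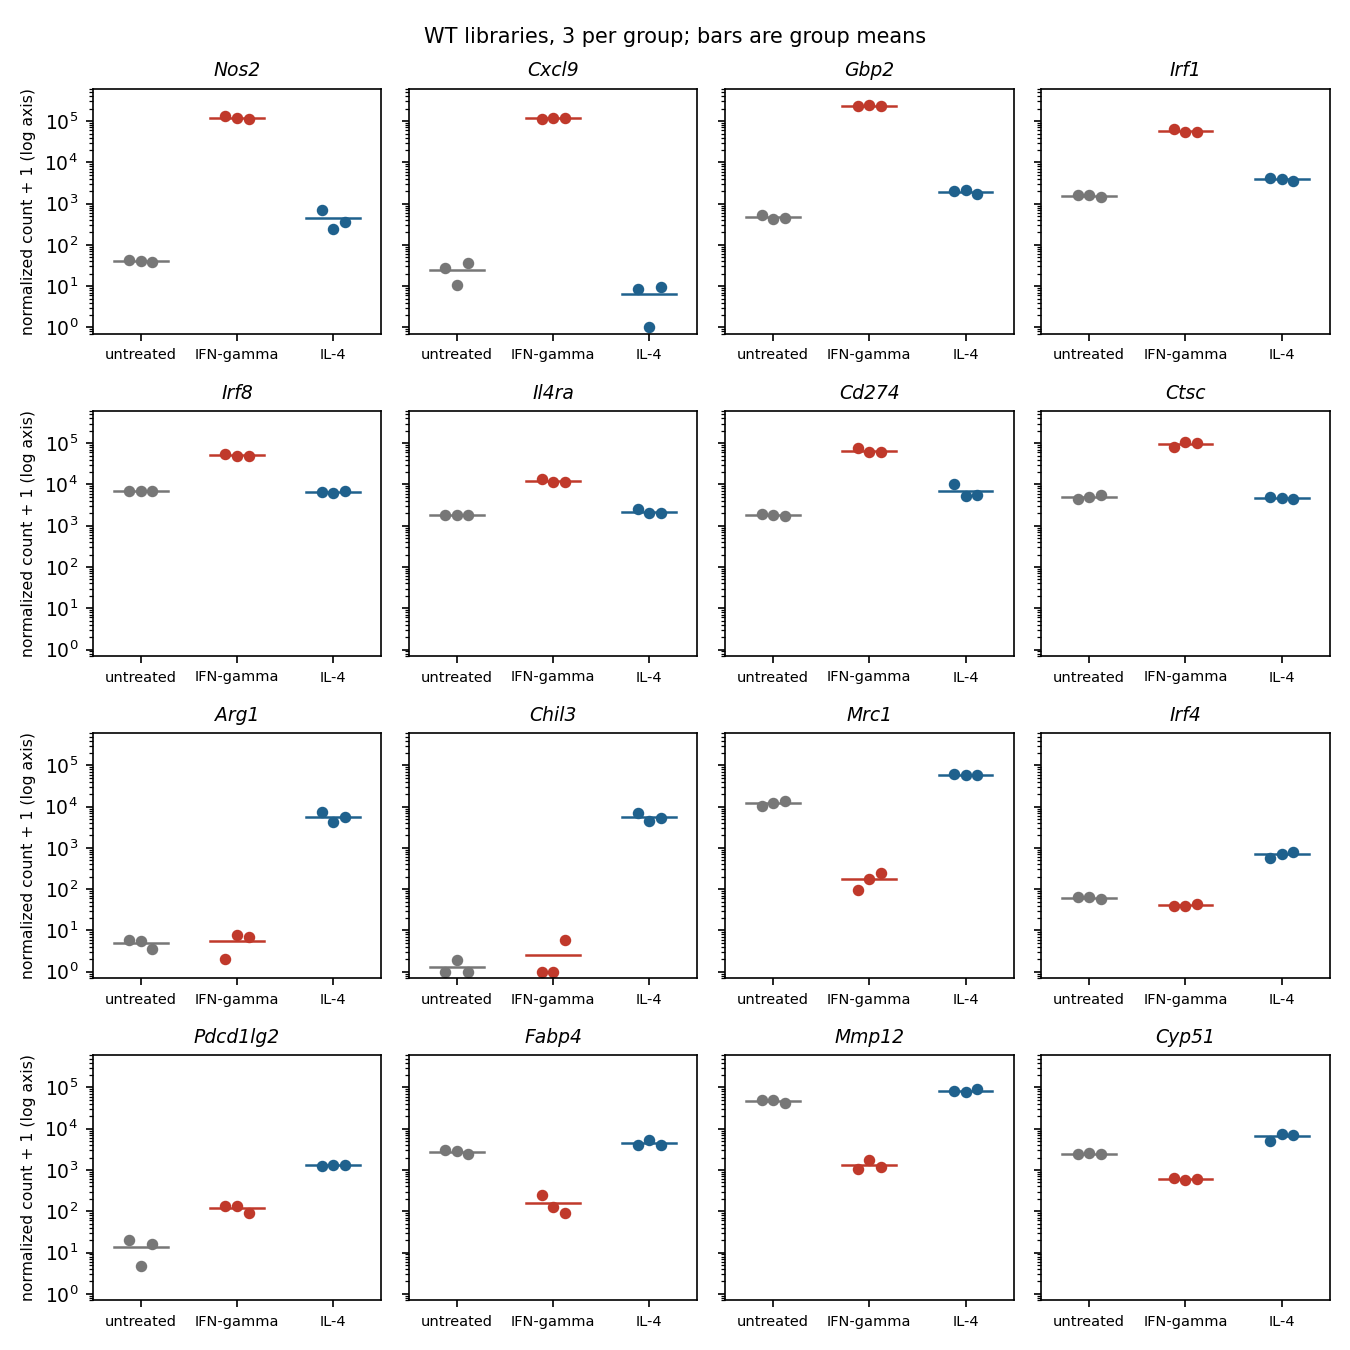
Normalized counts plus 1 on a log axis for 16 genes, with 1 point for each library of the WT untreated, IFN-gamma and IL-4 groups (3 each) and a bar at the group mean. The upper 2 rows hold genes higher with IFN-gamma and the lower 2 rows genes higher with IL-4, and in none of them do the IFN-gamma and IL-4 points overlap.

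The ligands of CXCR3, a receptor of activated T cells, were much higher with IFN-gamma. They are Cxcl9, Cxcl10 and Cxcl11. Cxcl9 stood at 111523, 118596 and 121121 with IFN-gamma against 7.65, 0 and 8.75 with IL-4, a log2 difference of 14.70 ± 0.747 (adjusted p = 1.60e-11). Cxcl10 stood at 53919, 71095 and 67132 against 134, 128 and 73.8, and Cxcl11 at 5974, 7309.6 and 7165 against 3.28, 0 and 0.625. With Cxcl16, which also acts as a scavenger receptor (1.76 ± 0.115), they were the 4 CXC genes higher with IFN-gamma, and 4 others of the 10 tested were higher with IL-4. Cxcl2, a neutrophil attractant, did not pass (-0.55 ± 0.283, adjusted p = 0.101).

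Among CC chemokines 5 of 13 were higher with each cytokine. Ccl5, an attractant of T cells, stood at 76519, 63280.03 and 57348 with IFN-gamma against 3466, 2197 and 2556 with IL-4. The monocyte attractants Ccl2 and Ccl7 were also higher with IFN-gamma, at 2699.8, 9004 and 8283 against 421, 997 and 726 and 1015, 5854 and 5177 against 531, 1089 and 931, with replicate 1 below the other IFN-gamma libraries in both. For Ccl7 that library lay below the highest IL-4 library, and without it the log2 difference was 2.76 in place of 1.94 ± 0.457. On the IL-4 side Ccl9 stood at 779, 1079.98 and 1014 against 48528, 56764 and 56790.2 and Ccl6 at 1172, 1551 and 1350.2 against 19983, 15748 and 16412. Ccl17 and Ccl22, the ligands of CCR4 on type 2 helper T cells, stood at 0, 0 and 0 against 15.3, 29.5 and 29.4 and at 84.5, 63.1 and 63.7 against 486, 374 and 661. Ccl24, an eosinophil attractant, reached only 29.5, 13.1 and 46.3 with IL-4. Ccl22 also lay above the untreated 4.87, 4.51 and 1.98 in every IFN-gamma library. Ccl4 and Ccl8 did not pass (adjusted p = 0.181 and 0.0508), but both passed without IFN-gamma replicate 1 (log2 0.96 and 1.24).

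Of 24 cytokine and receptor genes, 17 were higher with IFN-gamma, all at least 2-fold, and 4 with IL-4 (median log2 2.95). Tnf stood at 5361, 6469.7 and 6908 with IFN-gamma against 295, 456 and 374 with IL-4. Il1b stood at 42080.02, 14747 and 14349.7 against 1992, 302 and 561, with replicate 1 the highest library in both states. Its log2 difference was 4.89 ± 0.584, and it ranged from 4.29 to 5.65 as single libraries were left out. Il15 and its presenting chain Il15ra, which sustain natural killer and memory T cells, differed by 3.07 ± 0.0933 and 3.92 ± 0.155. Il12rb1, a chain of the IL-12 and IL-23 receptors, stood at 2574, 3361 and 3385 against 34.95, 9.84 and 16.3, and the decoy receptor Il1r2 at 1133, 574 and 534 against 13.1, 0 and 10.6. Tnfsf10, the death ligand TRAIL, differed by 6.29 ± 0.453. The 1 gene of the list at least 2-fold higher with IL-4 was Il31ra, a receptor chain for IL-31 (1.96, 2.25 and 0 against 58.98, 98.4 and 105). Csf1 and Il1a did not pass, and Csf1 ranged from 990.2 to 2568 among the IL-4 libraries.

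Most antigen presentation genes were higher with IFN-gamma. Of 19 genes of MHC class I and peptide loading, 15 were higher with IFN-gamma and 2 with IL-4 (median log2 1.23). B2m, the light chain, stood at 217304, 213689.7 and 207086 against 121734, 134364 and 109517, and the peptide transporter chain Tap2 at 13319, 11893 and 11653 against 2683, 2348 and 2451. The nonclassical genes H2-Q4 and H2-Q6 differed by 2.22 ± 0.102 and 4.24 ± 0.229. H2 genes are near-identical copies that could share reads. All 7 immunoproteasome genes were higher with IFN-gamma (median 1.34), among them Psmb9 (7857, 6810.2 and 6525 against 1632, 1590.2 and 1535) and Psmb8 (1.65 ± 0.1096). Of 25 constitutive proteasome subunits 23 were higher with IFN-gamma, only 1 of them, Psma5, by at least 2-fold (4765, 4384 and 4276 against 1644, 2108 and 1526), with a median of 0.60. The 23 became 15 with quantile normalization and 19 with scaling to the same total. Psmb6 and Psmb4 did not pass.

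MHC class II genes followed the same direction. Of 13 genes tested 10 were higher with IFN-gamma and 2 with IL-4 (median log2 2.17). H2-Ab1, a chain of the I-A molecule, stood at 68403, 48841 and 43209 with IFN-gamma, 9524, 7338 and 8616 with IL-4 and 2950.01, 2228 and 1695 in untreated cells. Cd74, the invariant chain, stood at 243462, 213171 and 193039.7, 65598, 61741 and 61867 and 13158, 10638 and 7977. Both thus lay above untreated cells with either cytokine, and higher with IFN-gamma. H2-Oa and H2-Ob, which restrain peptide exchange, differed by 4.82 ± 0.375 and 5.56 ± 0.425. Ifi30, a thiol reductase of antigen processing, did not pass (0.10 ± 0.106, adjusted p = 0.443).

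The checkpoint ligands split. Cd274 (PD-L1) stood at 74626, 60812 and 59629 with IFN-gamma against 10358, 5298 and 5542 with IL-4, a log2 difference of 3.27 ± 0.188. Pdcd1lg2 (PD-L2), the other ligand of the inhibitory receptor PD-1, stood at 136, 129.6 and 88.4 with IFN-gamma against 1275, 1311 and 1347 with IL-4, a log2 difference of -3.49 ± 0.376. The 2 ligands of PD-1 thus lay on opposite sides, and each stood above its untreated level (1921, 1793 and 1687 and 19.5, 3.61 and 15.1) with both cytokines. Cd40 stood at 9161, 11648 and 11179.99 against 436, 505 and 361 and Cd86, a ligand of CD28, at 13628, 13889 and 13374 against 2354, 790.2 and 1009. Of 16 costimulatory and checkpoint genes, 12 were higher with IFN-gamma and 3 with IL-4 (median 1.38). Vsir did not pass (-0.03 ± 0.0713).

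Cell-autonomous defence genes were mostly higher with IFN-gamma, 18 of 21 against 2 with IL-4 (median log2 1.72, and 1.06 over its genes with a mean of at least 50). Acod1, which makes the antimicrobial metabolite itaconate, stood at 112986, 128706 and 122396 with IFN-gamma, 7348, 3964 and 4429 with IL-4 and 2439, 1596 and 1376 in untreated cells. Slc11a1, a phagosomal metal transporter, differed by 2.11 ± 0.0801, Nlrp3, an inflammasome sensor, by 2.89 ± 0.123 and Wars, a tryptophan tRNA synthetase, by 2.45 ± 0.09897. Ido1, a tryptophan-degrading enzyme, had 254 reads with IFN-gamma and 0 with IL-4, at least 86.7-fold higher. The oxidase subunit Cyba did not pass (-0.22 ± 0.138, adjusted p = 0.1803).

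On the IL-4 side the alternative activation genes were as one-sided. Of 23 genes 21 were higher with IL-4, all by at least 2-fold, and 2 with IFN-gamma, with a median log2 of -3.54 (-4.68 with edgeR and -4.70 with DESeq2). Chil3, a chitinase-like protein, stood at 0, 0 and 4.72 with IFN-gamma against 7005, 4587 and 5232 with IL-4, a log2 difference of -11.59 ± 0.641 (adjusted p = 4.81e-11). Retnla, the secreted resistin-like protein RELM-alpha, had 0 reads with IFN-gamma and 2719 with IL-4, at least 885-fold higher, and its IL-4 libraries ranged widely (342, 1675 and 1185). Mrc1, the mannose receptor CD206, stood at 94.3, 171 and 249 with IFN-gamma, 62567, 57764 and 58654 with IL-4 and 10316, 12331 and 14060.3 in untreated cells. Mgl2 had 1 read with IFN-gamma and 8788 with IL-4, a ratio of 8579.9 (95% counting interval 1539.5 to 338926), and its neighbour lectin Clec10a stood at 24.6, 28.2 and 35.4 against 1368, 1207 and 1103. Clec7a, the beta-glucan receptor, and Itgax, the CD11c integrin, differed by -3.45 ± 0.117 and -4.79 ± 0.235. Rnase2a, an eosinophil-type ribonuclease, had 0 reads against 733. The 2 genes of the list higher with IFN-gamma were Tgm2 (17427, 16222 and 14405 against 4925, 2748 and 3156) and Cd83 (1.12 ± 0.165). Tgm2, a transglutaminase used as an M2 marker, lay above the untreated mean of 1409 with both cytokines. The haemoglobin scavenger receptor Cd163 was higher with IL-4 than with IFN-gamma (67.7, 167 and 138 against 4.91, 19.2 and 14.2), but highest in untreated cells (187, 236 and 201).

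The receptor chains of the IL-4 pathway were higher with IFN-gamma than with IL-4. Il4ra stood at 13321, 11206 and 11252 with IFN-gamma against 2481, 1987 and 2034 with IL-4, a log2 difference of 2.46 ± 0.0905 (adjusted p = 2.28e-13), with the untreated libraries at 1857, 1843 and 1837. Il13ra1, the partner chain for IL-13, and the common chain Il2rg were higher with IFN-gamma as well (3.02 ± 0.142 and 1.76 ± 0.0838). Stat6 differed little (8524, 9245 and 9251 against 7295, 7502 and 7793, log2 0.26 ± 0.0566, adjusted p = 7.60e-04), and the difference was -0.01 with quantile normalization. The feedback inhibitor Socs2 was higher with IL-4 (12.8, 7.89 and 5.896 against 252, 209.8 and 234), whereas Cish, a related inhibitor, did not pass (0.52 ± 0.348) and stood far above its untreated mean of 16.3 in both states. Of 10 tested genes of this list, 7 were higher with IFN-gamma and 2 with IL-4 (median 1.01).

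Transcription factors known from IL-4-treated macrophages were higher with IL-4 in 9 of 14 cases and with IFN-gamma in 5 (median log2 -0.94). Egr2 stood at 9.82, 11.3 and 7.08 with IFN-gamma against 133, 161 and 176 with IL-4. Pparg, the lipid-sensing nuclear receptor, stood at 423, 675 and 749.97 and 3118, 4367 and 3932, and its partner Rxra differed by -1.49 ± 0.08701. Bhlhe40 and Myc were higher with IL-4 too, by -2.27 ± 0.3097 and -2.56 ± 0.294. Klf4, described as a cofactor of STAT6, was higher with IFN-gamma (4952, 4271 and 3669.7 against 1776, 1266 and 1499), as was the repressor Bcl6 (0.89 ± 0.05601).

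**Figure D3:**
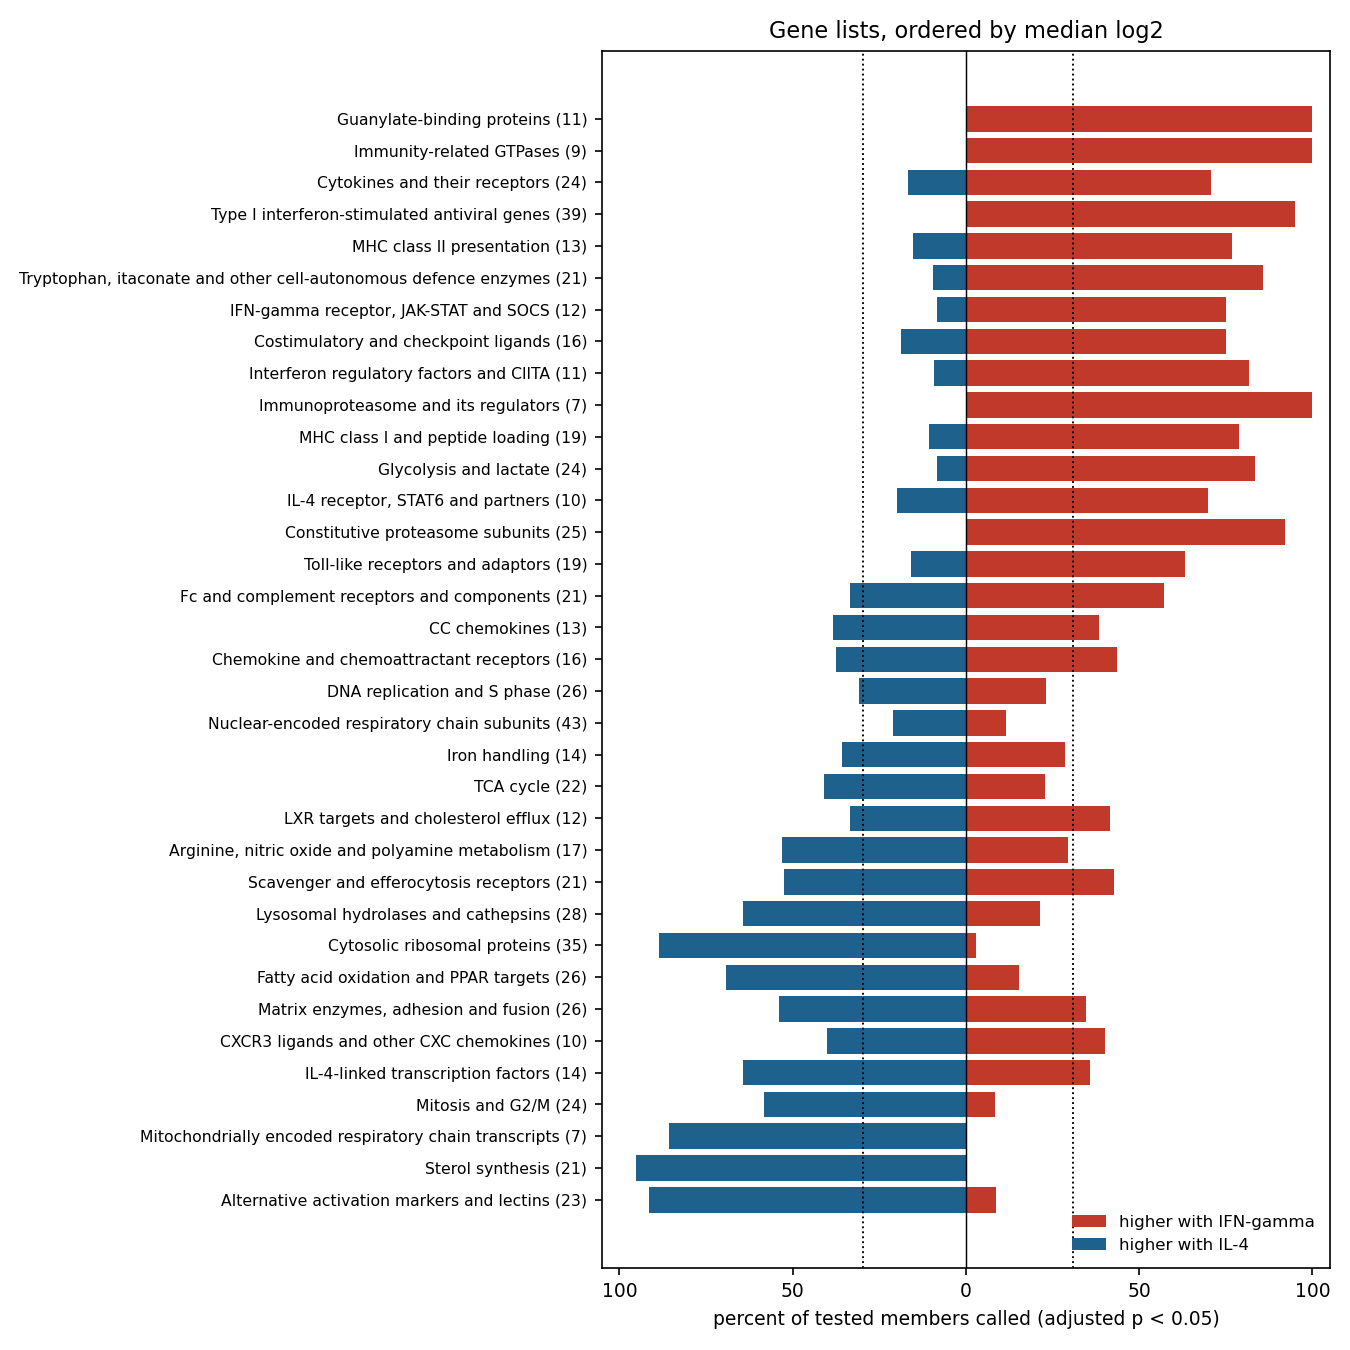
For each of 35 functional gene lists, bars show the percent of tested members called higher with IFN-gamma (to the right) and higher with IL-4 (to the left), with the number tested beside the name. Dotted lines mark 30.8% and 29.7%, the shares over all 14288 genes. The guanylate-binding proteins reach 100% on the right, and sterol synthesis has no member on that side.

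Metabolic genes divided between the states. Of 24 genes of glycolysis and lactate handling, 20 were higher with IFN-gamma, 13 of them at least 2-fold, and 2 with IL-4 (median log2 1.10). Slc2a1, the glucose transporter GLUT1, stood at 9667, 9966 and 9427 against 2483, 2219.7 and 2514, the hexokinase Hk3 at 68741, 69233 and 70289.7 against 19533, 18266 and 19294 and the regulator Pfkfb3 at 10075, 11278 and 10195 against 1549, 1141 and 1316. Slc16a3, which exports lactate, differed by 2.58 ± 0.189. Ldha, the gene deleted in the KO mice, stood at 36752, 38896 and 36197 with IFN-gamma, 22901, 23518 and 25145 with IL-4 and 12204, 11939 and 10712 in untreated cells, a log2 difference of 0.64 ± 0.0761. Ldhb, the other chain of the enzyme, was lower with IFN-gamma (60.9, 58.6 and 64.9 against 275, 197 and 264). The transporters Slc2a3 and Slc16a1 did not pass (-0.16 ± 0.149 and -0.12 ± 0.0872).

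In the tricarboxylic acid cycle 5 of 22 genes were higher with IFN-gamma and 9 with IL-4 (median log2 -0.11), against 30.8 and 29.7% of all genes tested. The 5 became 0 with quantile normalization and 1 with scaling to the same total. The differences of at least 2-fold were 3, all at the isocitrate and aconitase steps: Idh1 stood at 1161, 1384 and 1288 with IFN-gamma against 8902, 12908 and 11147 with IL-4, Idh2 at 501, 324 and 334 and 1470.2, 1689 and 1573, and Aco1 at 1105, 1543 and 1518 and 3137, 3567 and 3655. Of 43 nuclear-encoded respiratory chain subunits 5 were higher with IFN-gamma and 9 with IL-4 (2 and 17 with quantile normalization), none by 2-fold, with a median of -0.06. In the main fit both shares lay below those over all genes. The mitochondrially encoded transcripts were lower with IFN-gamma in 6 of 7 tested (median -0.97), as was the whole mitochondrial share given above. mt-Nd1 stood at 22716, 30426 and 29461 against 52353, 69728 and 63031, while mt-Co1, the most abundant by count, did not pass (-0.21 ± 0.104, adjusted p = 0.0904), though it did with edgeR (adjusted p = 0.0311) and DESeq2 (0.00181).

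Sterol synthesis genes were higher with IL-4. Of 21 genes 20 were higher with IL-4, 18 by at least 2-fold, and none with IFN-gamma (median log2 -2.10). Cyp51 stood at 633.5, 587 and 612 with IFN-gamma, 5172, 7252 and 7214 with IL-4 and 2504, 2538 and 2374 in untreated cells, and Hmgcs1, which starts the pathway, at 1379.9, 1342 and 1244, 6473, 6941 and 7486 and 3116, 3084 and 2737. Untreated cells lay between both states in these genes. Sqle and Lss differed by -2.73 ± 0.1401 and -2.50 ± 0.113. Of 12 liver X receptor targets and efflux genes 5 were higher with IFN-gamma and 4 with IL-4, and 3 and 6 with quantile normalization. They held wide gaps in each direction: Ch25h, which makes 25-hydroxycholesterol, stood at 2983, 7500.1 and 7803 against 139, 26.2 and 68.8, and the desaturase Scd1 at 49.1, 69.9 and 48.3 against 2151, 2246 and 3253. Apoe and Abca1 did not pass (-0.45 ± 0.344 and -0.31 ± 0.1697).

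Fatty acid oxidation genes and targets of PPAR-gamma were higher with IL-4 in 18 of 26 cases and with IFN-gamma in 4 (median log2 -0.77). The lipid-binding proteins Fabp4 and Fabp5 stood at 248, 125 and 87.3 against 4139.8, 5226 and 4127 and 3424, 3039 and 2651 against 16783, 17587 and 19111. The fatty acid receptor Cd36 stood at 21647, 35001 and 36141 against 51672, 79387 and 80312. Acads, a dehydrogenase of the oxidation cycle, differed by -1.45 ± 0.0829. Cpt1a, the gate of mitochondrial fatty acid import, did not pass (0.11 ± 0.101, adjusted p = 0.374), nor did Hadhb (-0.04 ± 0.0814).

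Lysosomal genes were higher with IL-4 in 18 of 28 cases and with IFN-gamma in 6 (median log2 -0.60). The cathepsins divided: Ctsc, which activates granule proteases, stood at 79947, 107336 and 103777 with IFN-gamma against 4839.9, 4829.5 and 4561 with IL-4, whereas Ctsl stood at 21671, 13296 and 13241 and 124540.4, 94407 and 86802 and Ctsk at 53.03, 56.4 and 38.9 and 844, 1046 and 885. Ctsh was higher with IFN-gamma (2.22 ± 0.0913) and Ctsd with IL-4 (-1.42 ± 0.121). Atp6v0d2, a proton pump subunit linked to osteoclasts and cell fusion, stood at 1024, 758 and 545 against 25374, 28151 and 25901.

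Receptors for prey and debris split within families. Of 21 scavenger and efferocytosis receptors 9 were higher with IFN-gamma and 11 with IL-4. Mertk (12097, 12135 and 12487 against 1629.7, 1049 and 1222) and Axl (1.65 ± 0.189), receptors that bind dying cells through bridging proteins, were higher with IFN-gamma. Their bridging ligand Gas6 and the bridging protein Mfge8 were higher with IL-4 (939, 1325 and 1299 against 3981, 4967 and 5247 and 692, 582 and 403 against 9589, 8138 and 11015), as was Trem2, a lipid receptor (405, 318 and 358 against 3482, 4209.8 and 4085). Gas6 was highest in untreated cells (11939, 13648 and 14507).

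Among 21 Fc receptors and complement genes 12 were higher with IFN-gamma and 7 with IL-4. The activating receptors Fcgr4 and Fcgr1 stood at 20809.7, 28119 and 27664 against 1275, 948 and 935 and 27496, 32073 and 30988 against 4962, 4393 and 3963, while the inhibitory receptor Fcgr2b stood at 968, 1274 and 1391 against 14839.8, 12905 and 12382. C4b, a complement component, stood at 784, 919.9 and 871 against 2.18, 0 and 4.38, and C3 differed by 1.40 ± 0.2004. Among 19 Toll-like receptor genes and adaptors 12 were higher with IFN-gamma and 3 with IL-4: Tlr9, which senses DNA, stood at 8507, 13778 and 14859 against 1365, 813 and 1029.6, Tlr12 at 521, 999.9 and 1022 against 1.09, 6.56 and 1.25 and Tlr8 at 1454, 2493 and 2577 against 7535, 7574 and 7983. Cd14, the lipopolysaccharide co-receptor, stood at 96375, 47252 and 48005 against 29487, 11354 and 13435, with replicate 1 highest in both states. Ticam2 and Tlr13 did not pass (-0.02 ± 0.111 and 0.11 ± 0.143), though Tlr13 passed without IFN-gamma replicate 1 (log2 0.37).

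Of 16 receptors for chemoattractants 7 were higher with IFN-gamma and 6 with IL-4. Fpr2 and Fpr1, which bind formyl peptides, stood at 1762, 1871 and 1913 against 22.9, 9.84 and 15.00 and 96.2, 231 and 242 against 1.09, 9.84 and 3.75. Cxcr4, the receptor that holds cells in marrow, was higher with IL-4 (826, 627 and 547 against 6753, 5757 and 5662), and the untreated libraries lay just above, at 8065, 7762 and 7378. Ccrl2 differed by 3.45 ± 0.159 and Cmklr1 did not pass (-0.06 ± 0.156). Of 14 iron genes 4 were higher with IFN-gamma and 5 with IL-4, near the 30.8 and 29.7% of all genes tested. The uptake receptor Tfrc stood at 803, 1560.2 and 1580.1 against 4931, 9705 and 9161 and the haem-degrading Hmox1 at 16133, 14555 and 12982 against 5414, 5344 and 5980.3. The ferritin heavy chain Fth1 did not pass (745046, 456648 and 430941 against 621689, 557619.7 and 485094), and its highest value was that of IFN-gamma replicate 1. With quantile normalization its difference passed in the direction of IFN-gamma (log2 0.52).

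Matrix enzymes, integrins and fusion genes were higher with IL-4 in 14 of 26 cases and with IFN-gamma in 9 (median log2 -0.79). Mmp12, the macrophage elastase, stood at 1047, 1706 and 1203 with IFN-gamma, 81278, 78252 and 92452 with IL-4 and 49609.5, 51084 and 42684 in untreated cells. The integrin chain Itgb3 stood at 19.6, 7.89 and 5.896 against 3305, 3039 and 3506, and Itgb5 at 2214, 1887 and 2002 against 8301, 9548 and 9581. The leukocyte integrin Itgal and its ligand Icam1 lay on the other side, at 10139, 14254 and 15389.7 against 606, 459 and 380.1 and 14384, 14223 and 14422 against 1090.1, 1023 and 1185. The common chains Itgb1 and Itgb2 did not pass (-0.03 ± 0.0632 and -0.19 ± 0.0943). Thbs1, a matricellular protein, stood at 97789, 34031 and 34145 against 44179, 6072 and 9573, with replicate 1 far above the other libraries in both states. Its difference (1.82 ± 0.7395, adjusted p = 0.0415) did not pass with edgeR (adjusted p = 0.102), without IFN-gamma replicate 1 (log2 1.32), or without IL-4 replicate 2 (1.24) or 3 (1.56).

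Genes of mitosis summed to lower levels than in untreated cells with both cytokines, and more of them were called higher with IL-4 than with IFN-gamma. Of 24 genes of mitosis 14 were higher with IL-4 and 2 with IFN-gamma (median log2 -0.96), and the summed level was 5542 to 7298 with IFN-gamma, 4343 to 6574 with IL-4 and 14125 to 15242 in untreated cells. The 14 became 10 with the compared groups alone and 12 without IFN-gamma replicate 2. They became 11 without IFN-gamma replicate 3 or IL-4 replicate 1, and 16 without IFN-gamma replicate 1. The sums overlapped between the states. Tpx2, a spindle protein gene and a large part of the IFN-gamma sums, went against the rest (2664, 2857 and 2878 against 499, 426 and 434). The proliferation marker Mki67 stood at 739, 293 and 324 with IFN-gamma, 1344, 734 and 717 with IL-4 and 2448, 2572 and 2623 in untreated cells. The cyclin Ccnb2 and Ube2c, a gene of the exit from mitosis, differed by -3.01 ± 0.269 and -2.97 ± 0.221. Of 26 S phase genes 6 were higher with IFN-gamma and 8 with IL-4 (median -0.04, and 0.05 with quantile normalization), against 30.8 and 29.7% of all genes tested. Rrm2, a nucleotide-making enzyme, stood at 23.6, 21.4 and 25.9 against 169, 190.2 and 162, and the cyclin Ccne1 at 1648, 1134 and 953 against 185, 170.5 and 164. Mcm6 and Cdt1, of origin licensing, did not pass. Of 35 cytosolic ribosomal protein genes 31 were higher with IL-4 and 1 with IFN-gamma, none by 2-fold, with a median of -0.63. Rpl4, for instance, stood at 16563, 15076 and 14807 against 26852, 33551 and 30934.

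Genes outside the lists also stood at the ends. Serpina3f and Serpina3g, protease inhibitors, stood at 10134, 15494 and 15082 against 4.37, 0 and 0.625 and 9895, 16961 and 16360.2 against 21.8, 32.8 and 18.1, and their near-identical sequences could share reads. Bcl2l14, a BCL2 family gene, had 9434 reads with IFN-gamma and 0 with IL-4, at least 3221-fold higher. Ly6a, the surface antigen Sca-1, stood at 43986, 41207 and 37209.6 against 208, 26.2 and 30.6. Cnn3, an actin-binding calponin, and Clic5, a chloride channel protein, stood at 6356, 5615 and 5335 against 16.4, 0 and 9.38 and 16209, 19039 and 17341 against 93.9, 29.5 and 41.3. Klrk1, the NKG2D receptor of killer cells, stood at 952, 1398 and 1357 against 0, 22.95 and 0.625. On the IL-4 side Tmem26, a membrane protein, stood at 3.93, 3.38 and 11.8 against 3362, 3439 and 3887 and Ptgs1, the constitutive cyclooxygenase, at 39.3, 31.6 and 38.9 against 2381, 3390.2 and 3499. P2ry1, an ADP receptor, differed by -6.60 ± 0.2102 and Cbr2, a carbonyl reductase, by -7.09 ± 0.275. Rhoj, a small GTPase, stood at 9.82, 9.02 and 5.896 with IFN-gamma, 501, 790.2 and 750.2 with IL-4 and 657, 633.3 and 692 in untreated cells, so the IL-4 libraries overlapped the untreated ones.

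Some genes were on in a single state. With at most 3 reads over the 3 libraries of one state and a mean of at least 50 normalized counts in the other, 28 genes were on with IFN-gamma and 25 with IL-4. Those on with IFN-gamma included Ubd, a ubiquitin-like protein (1266 reads against 0), Sectm1a (3635 against 1), Chrm3, a muscarinic receptor (973 against 2), and Pacsin1 (982 against 1). Those on with IL-4 included Galnt9, a glycosyltransferase (1072 reads against 0), Slc27a6, a fatty acid transporter (460 against 0), Chst7, a sulfotransferase (503 against 1), Cldn11, a claudin (620 against 2) and Mamdc2 (651 against 2). Galnt9 and Slc27a6 also had reads in untreated cells (means of 65.6 and 22.96), and the untreated libraries of Mamdc2 (397, 323 and 236) overlapped those of IL-4 (230.5, 131 and 250.1). By gene class, 23.4% of 1091 long noncoding RNAs were at least 2-fold higher with IFN-gamma and 12.3% with IL-4, against 12.3 and 12.7% of protein-coding genes. Antisense genes and overlapping genes are uncertain here, because the counting's strand setting is unstated in the labels and processing notes.

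Genes that did not pass numbered 5639. For 2849 of them the 95% interval of the difference lay within 1.5-fold in either direction, so a larger difference than that was not seen, and for the others the spread allows one. The 6 with the highest counts were CT010467.1, Mir6236, Lars2, mt-Co1, Fth1 and Grn. Grn, the progranulin precursor, stood at 113336, 113152 and 109687 against 106199, 92023 and 95176 (log2 0.20 ± 0.0854, adjusted p = 0.0529). CT010467.1 stood at 145007, 152874 and 122742 with IFN-gamma against 140315, 577629.5 and 122868 with IL-4, so that the shallow IL-4 replicate 2 stood far above the others. Mir6236 and Lars2 showed the same library on top (169959, 455016 and 118896 and 182942, 474387 and 133764 with IL-4). Loci of these names are known to collect reads of ribosomal RNA.

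The same contrast in Ldha KO cells shares no library with that in WT cells. Ldha itself stood in KO cells at 9189.6, 9315 and 10124 with IFN-gamma against 4105, 4218 and 4226 with IL-4, below all WT libraries of the same treatment. Across the 14288 genes the log2 differences of WT and KO correlated at r = 0.906, over genes, which are not independent replicates. The difference between the genotypes was tested as an interaction, and 822 genes (5.75%) passed, of which 601 had the same direction in both. Of these 601 the WT difference was the larger in 470 and the KO difference in 131. How often the WT difference was the larger over all genes was not counted. The number rested in part on single libraries: it was 486 without KO IFN-gamma replicate 1, 541 without WT IL-4 replicate 3, 520 without KO IL-4 replicate 2 and 1095 without WT IL-4 replicate 1. DESeq2 called 1253, and the fit of the compared libraries alone 289.

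Of the 8 genes named for their genotype difference 6 were higher with IL-4. Itgb3 differed between the states by log2 -8.24 ± 0.278 in WT and by -4.46 in KO (difference -3.78, adjusted p = 3.86e-05). Its KO libraries stood at 199, 175 and 212 with IFN-gamma against 4866, 3873 and 4263 with IL-4. Dio2, an enzyme that activates thyroid hormone, stood in WT at 41.2, 21.4 and 16.5 against 1148, 715 and 686 and in KO at 693, 461 and 786 against 2207, 1282 and 2507. Fabp4 in KO stood at 857, 694 and 1151 against 3973, 2956 and 2984. The serotonin receptor Htr2a stood in WT at 28.5, 19.2 and 17.7 against 516, 338 and 351 and in KO at 274, 255 and 302 against 800.2, 703 and 1057. Lipn, a lipase, and Apol7c, an apolipoprotein L, had WT differences of -6.93 ± 0.373 and -8.37 ± 0.561 and KO differences of -3.80 and -5.25. On the IFN-gamma side Slc4a11, a membrane transporter, had a WT difference of 5.66 ± 0.4696 and a KO difference of 2.53, and Xcr1 had 8.98 ± 0.496 and 6.28. The genotype difference of Xcr1 did not pass in 9 of the 12 fits that left out a library, nor that of Apol7c in 5. Nos2 differed by 8.26 ± 0.2496 in WT and by 6.47 in KO (adjusted p = 0.00601 for the difference), whereas for Arg1 (-8.74 in KO), Cxcl9 (14.28) and Mrc1 (-8.30) the genotype difference did not pass (adjusted p = 0.224, 0.863 and 0.739).

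**Figure D4:**
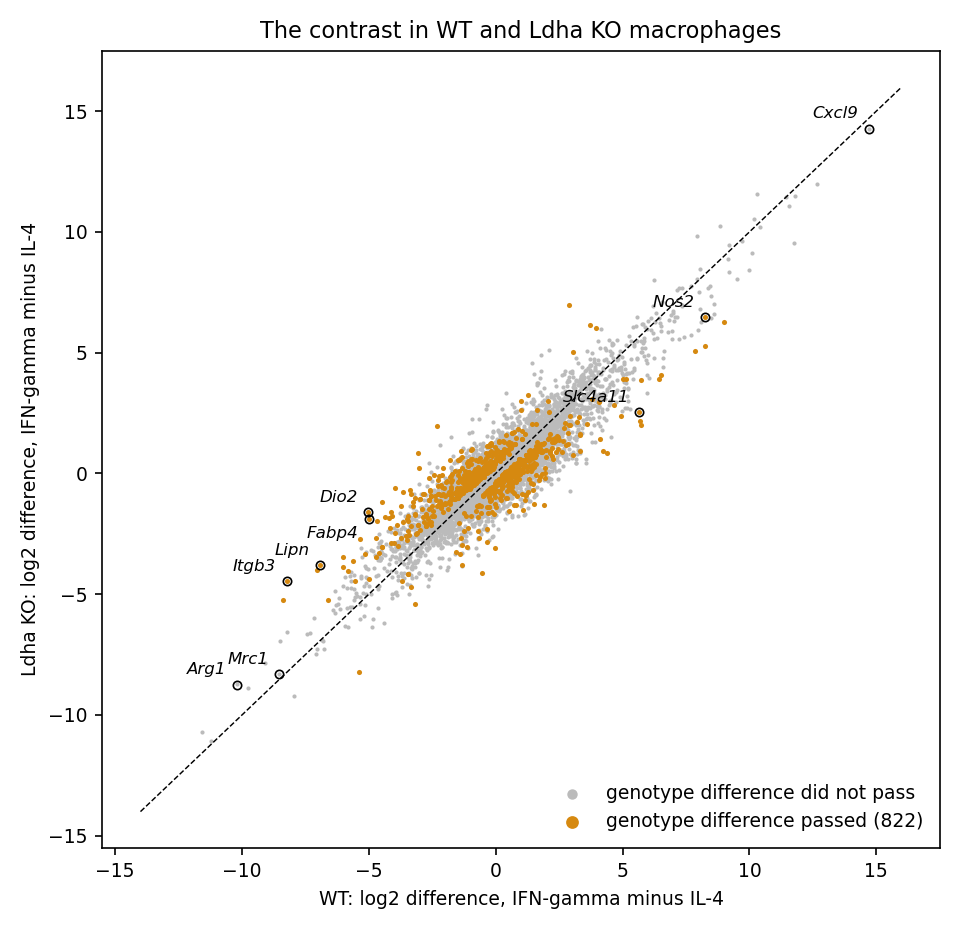
Each point is 1 of the 14288 genes, placed by its log2 difference, IFN-gamma minus IL-4, in WT (horizontal axis) and in Ldha KO cells (vertical axis), with the 822 genes whose difference between genotypes passed in colour. Points lie along the dashed line of equal difference (r = 0.906), and Itgb3, Fabp4 and Dio2 sit above it on the side of IL-4.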

How the data were processed

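The authors deposited 1 table of normalized counts, a signal made by dividing whole read counts per gene by a size factor for each library: alignment to GRCm38 used STAR 2.5, counting HTSeq 0.6 and later steps DESeq2 and edgeR, per the submitters' processing notes. Libraries were poly(A)-selected and directional, per the labels' protocols. Strand setting and annotation release: not given in the sources used here. Whole reads came back from 100% of the values in all 18 libraries (within 0.1 of a whole number). Of 21428 lines, 21380 gene identifiers were kept, with 34 repeated ones used once.

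The tested values are log2 of the normalized count plus 1 (pseudocount 1). limma 3.58.1 in R 4.3.3, with a trended prior, was fitted to all 18 libraries as 6 groups with 12 residual degrees of freedom, over the 14288 genes with at least 10 normalized counts in at least 3 libraries, with Benjamini-Hochberg adjustment. A called gene has an adjusted p under 0.05. The script was tested on simulated data with known changes. Alternatives were other scalings, pseudocounts of 0.5 and 5, other filters, edgeR 4.0.16 and DESeq2 1.42.0 on the recovered reads, the compared groups alone, a replicate block and leaving out each library. edgeR called 4275 genes higher with IFN-gamma and 4270 with IL-4. Depth was 9.773 to 49.54 M reads in the 6 libraries. Counting intervals and floors (3 reads, over a group) take in counting error alone. Setting list members at 0 reads in a state to their bounds moved 1 list median, that of the alternative activation genes, to -3.49.

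Genes were named by rule: the 20 with the largest difference in each direction (mean of at least 500, no overlap), up to 4 called and 2 other members of each list, fixed markers, up to 8 on in a single state per direction, 8 with the largest genotype difference (mean of at least 500 in a group) and the 6 most abundant that did not pass. The following were added after their values were seen: Il12rb1, Il1r2, Il31ra, Socs2, Irf4, Irf7, Bhlhe40, Myc, Cd86, H2-Ab1, Cd74, Il1b, Cd163, Tgm2, Cd83, Itgal, Ctsl, Ctsd, Axl, Slc7a2, Ldha, Ldhb, Flt1, Mx1, Ifi205, Slc16a3, Dpp4, Ccl2, Ccl7, Ccl17, B2m, Zbtb46, Ifngr1, Stat6, Mki67, Adgre1, Csf1r, Tnfsf10, Stat2, Ido1, Cd36, Klf4, Tfrc, Fn1, Sirpa, C3, Cd14, Lyz2, Thbs1 and Gbp7. Cd24a was also added after its values were seen. The libraries compared and the gene lists were chosen with earlier results of these data known. The authors' fold changes and adjusted p-values were not used. Some listed genes are not reported here.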

Additional observations from a re-analysis of the deposited data

Results flagged for a closer look

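For 32 of the 232 genes named here, the difference between IFN-gamma and IL-4 in WT cells itself differed from that in Ldha KO cells (interaction test in limma, adjusted p under 0.05). Over all genes 5.75% passed, and 8 of the 32 were named for this difference, so their number is set in part by the choice. Values are the WT minus KO difference of log2 differences, and a negative value means that the gene leaned more to IL-4 in WT than in KO cells. Among genes higher with IL-4, the values were -3.78 for Itgb3, -3.41 for Dio2, -3.13 for Lipn, -3.12 for Apol7c, -3.10 for Fabp4 and -2.54 for Htr2a. They were -2.38 for Ctsk, -2.13 for Mmp12, -1.62 for Fabp5, -1.50 for Cxcr4, -1.46 for Trem2, -1.34 for P2ry1 and -1.05 for Gas6. Smaller ones were -0.80 for Ctsd, -0.72 for Lss, -0.61 for Idh1 and -0.46 for Rxra. The IL-4 genes Ccl6, Lyz2 and Fcgr2b went the other way, at 0.77, 0.61 and 0.68, so that their difference was the wider one in KO cells.

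Among genes higher with IFN-gamma, the WT difference exceeded that in KO cells by 3.13 for Slc4a11, 2.97 for Pacsin1, 2.70 for Xcr1, 2.52 for Ch25h, 1.80 for Nos2, 0.60 for Bcl6 and 0.56 for Irf8. Ldha, the deleted gene, had -0.54. Of genes that did not pass between the states in WT cells, the values were -0.86 for Cmklr1, -0.52 for Cdt1, 0.95 for Vsir and 0.49 for Sms. When single libraries of the 4 groups were left out in turn, 22 of the 32 passed in every fit. Ch25h, Fcgr2b and Xcr1 did not pass in 9 of the 12 fits, Idh1 and Rxra in 7, Cdt1 and Cmklr1 in 6, Apol7c in 5, Ccl6 in 4 and Lyz2 in 3.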

How the results depend on the processing

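The counts of genes called between IFN-gamma and IL-4 in WT cells stayed within 1.5 times their reported values in every setting run. The count higher with IFN-gamma ranged from 4098 to 4490 and that higher with IL-4 from 3897 to 4193 as single WT libraries were left out. Scaling to the same total, chosen after seeing the data, gave 3537 and 5185, and quantile normalization 3895 and 4630. The count of genes that differed between genotypes moved more: 1253 with DESeq2, 289 with the compared libraries alone, 1555 with the replicate block, and 486 to 1095 with single libraries left out, against 822. Replicate numbers are shared between treatments, but the labels do not say that they mark a mouse or batch. The deviations of same-numbered IFN-gamma and IL-4 libraries from their group means correlated at 0.2217, 0.04871 and 0.05013, and not every library correlated best with its own number. The replicate block gave 4588 and 4477 calls in WT. Among named genes, quantile normalization turned the sign of Fth1 (0.52) and Stat6 (-0.01), and the cause was not tested. Some genes that did not pass did so once a library was left out: Abca1 (log2 -0.47) and Psmb4 (0.33) without IL-4 replicate 2, Cxcl2 (-0.77), Lars2 (-0.79) and Mir6236 (-0.84) without IL-4 replicate 3, Grn (0.26) and Il1a (1.23) without IL-4 replicate 1, and Psmb6 (-0.32) and Sms (0.23) without IFN-gamma replicate 1. Of these, Lars2 and Mir6236 passed under no other setting, and the others passed under at least 1 more. With the replicate block Abca1, Apoe, Ccl4, Ccl8, Cish, Il1a, Psmb4, Psmb6 and Sms passed. Of 714 list medians under other settings 660 moved by less than the spread between libraries. The median of the alternative activation list was -4.46 with a pseudocount of 0.5, and the CXC chemokine list had -0.85, but 1.76 when genes had to average at least 50. In all, 3867 of 3938 values of named genes under other settings kept direction and side of the threshold. Leaving out 1 library moved the fold of 21 of the named genes by over 1.5 times, with no change of direction. The library with the largest pull was IL-4 replicate 2 for Cxcl9 (log2 13.64 without it), Cnn3 (8.74), C4b (7.70), Ch25h (5.82), Clec9a (7.59), Fpr1 (5.81), Il1r2 (5.78), Klrk1 (9.90), Mmp25 (7.19), Tlr12 (8.55) and Tnfsf10 (5.68). It was IL-4 replicate 1 for Il1b (5.65), Ly6a (10.44), Retnla (-10.46), Serpina3f (13.35) and Thbs1 (2.67), IFN-gamma replicate 1 for Arg1 (-9.56), Ccl7 (2.76) and Sulf2 (-6.70), and IFN-gamma replicate 3 for Chil3 (-12.43) and Zbtb46 (-0.92). Depth limits genes at or near 0 in 1 state, above all in IL-4 replicate 2, where a single read counts for 3.279 normalized counts.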

Other observations

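Several more surface and signalling genes differed between the states. On the IL-4 side Flt1, a receptor for vascular growth factors, stood at 3776, 5095 and 5451 with IL-4 and 599, 709 and 719 with IFN-gamma, both above the untreated mean of 21.4. Lrrc32, which holds latent TGF-beta at the cell surface, stood at 1204, 895 and 1439.7 against 24.6, 10.1 and 9.43, and Fn1, the matrix protein fibronectin, at 608, 609.8 and 1097 against 58.9, 87.9 and 55.4. Ksr2, a scaffold of MAP kinase signalling, and Matk, a kinase that restrains SRC family kinases, differed by log2 -5.87 ± 0.293 and -6.18 ± 0.266. Sulf2, which removes sulfate from heparan sulfate, differed by -5.84 ± 0.542. Plin2, a coat protein of lipid droplets, stood at 26441, 32492 and 32219 against 7869, 10579.9 and 9582. On the IFN-gamma side Mmp25, a membrane-anchored matrix protease, stood at 2632, 2741 and 2739 against 28.4, 0 and 10.6. Il10ra, the ligand-binding chain of the IL-10 receptor, stood at 18186, 19199 and 19469.8 against 4420.5, 3997 and 4009, and Ptpn6, the phosphatase SHP-1, at 22257, 26017 and 25324 against 5434, 6252 and 6105. In all 10 genes the libraries of the 2 states did not overlap, as in 59.3% of all genes tested. The naming rule required this of the genes with the largest differences.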
